A study of Mus musculus with 6 samples.

Results

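Pluripotency and undifferentiated germ cell genes were followed in fetal mouse gonads with and without an intact Sox9 gene, a transcription factor gene of Sertoli cells. The genes were a list of 37, among them Pou5f1, Nanog, Sox2, the Dppa genes, Lin28a, Lin28b, Prdm1 and the Tet genes. A gene was measured where at least 1 probe set of the array was annotated to it alone, and the brightest such probe set, by its mean over the 6 arrays, stood for it. This gave 36 of the 37 genes, out of 19937 genes in all; Tdh was not matched by that rule. The selection rule uses brightness to choose probe sets and no difference between genotypes, but the list was drawn up with earlier results of these data known.

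The study put RNA of gonads dissected without the mesonephros at E13.5 on 6 microarrays, 1 array per pool. Wild-type pools, numbered 1, 2 and 5, held 6 gonads each. Pools of genotype Sox9flox/flox; Sf1:creTr/+, numbered 3, 4 and 6 and called the mutant here, held 12 gonads each, so pool size went with genotype. Every pool came from the same mixed background of C57BL6/J and 129, and 300 ng of total RNA went into each labelling. Sf1 is the older name of Nr5a1, a gene of somatic gonadal and adrenal cells, so this Cre is driven in the somatic cells that surround the germ cells. Neither the Cre alone nor the floxed alleles alone had a group, and the labels used here name no embryo sex, litter or batch. Nothing says that pools came from separate litters, so the p-values measure only the spread between these pools, which may be partly technical.

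Primordial germ cells keep a set of genes that they share with the early embryo and with embryonic stem cells. POU5F1, NANOG and SOX2 hold the pluripotent state, while PRDM1, PRDM14 and TFAP2C specify the germ line. In the fetal ovary germ cells shut these genes down as they enter meiosis, in a wave along the gonad. In the fetal testis they are shut down more slowly, as germ cells arrest and become prospermatogonia. Several listed genes, such as Klf2, Klf4, Tbx3, Sall1, Dnmt1 and Tet2, are also active in somatic cells.

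The values are log2 intensities after RMA, which sets all arrays to a common scale. Differences are mutant minus wild type, tested with limma over 28187 probe sets, and a gene is said to have risen or fallen where its Benjamini-Hochberg adjusted p was below 0.05. Levels of different genes cannot be ranked, since each probe set has its own response. The 95th percentile of 1210 olfactory and vomeronasal receptor probe sets, 6.67 log2, served as a mark of background. Of the 36 genes, 31 lay above it on every array. Zfp42 lay below it on every array, while Fut4, Lin28b, Tcl1 and Fbxo15 crossed it.

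Sox9 measured 8.82, 8.81 and 9.20 log2 in wild type 1, 2 and 5 and 7.52, 7.78 and 7.60 in mutant 3, 4 and 6, a fall of 1.31 ± 0.14 log2 (SE; limma adjusted p = 0.00124). Arrays of a group correlated at 0.984 to 0.992 over all probe sets, and arrays of different groups at 0.969 to 0.985. Wild type 5 stood apart in fetal liver genes, with a mean of 9.21 log2 over 9 of them against 6.48 to 6.62 on the 5 other arrays. Sertoli genes fell in 9 of 12 cases and Leydig genes in 4 of 4, and pregranulosa genes rose in 7 of 7. Mutant 4 stood apart from mutant 3 and 6 in the Leydig genes, with median deviations from wild type of -4.66, -2.05 and -4.73 log2 on mutant 3, 4 and 6. Some results are therefore also given without wild type 5 and mutant 4.

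Genes of the undifferentiated germ cell were mostly lower in the mutant, although few passed the test one by one. Dppa4, Dppa3, Utf1, Dnd1 and Prdm1 fell and Fut4 rose, while 30 of the 36 did not pass. The falls ran from 1.67-fold for Prdm1 to 2.93-fold for Dppa3. The 5 that fell are 13.9% of the 36, against 4.3% of all genes, and the single riser is 2.78%, against 2.64%. Differences were negative for 27 of the 36 genes (75%) and for 49.2% of all genes. The median difference was -0.28 log2 for the 36 and 0.004 for all genes. With no adjustment for multiple tests, 21 of the 36 (58.3%) had a limma p under 0.05, as did 21.7% of all genes. In 16 of the 36 (44.4%) every mutant array lay below every wild-type array, as in 16.6% of all genes, and 5 (13.9%) lay wholly above, as in 12.1% of all genes. In a bulk sample fewer germ cells and less RNA per germ cell cannot be told apart.

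**Figure D1:**
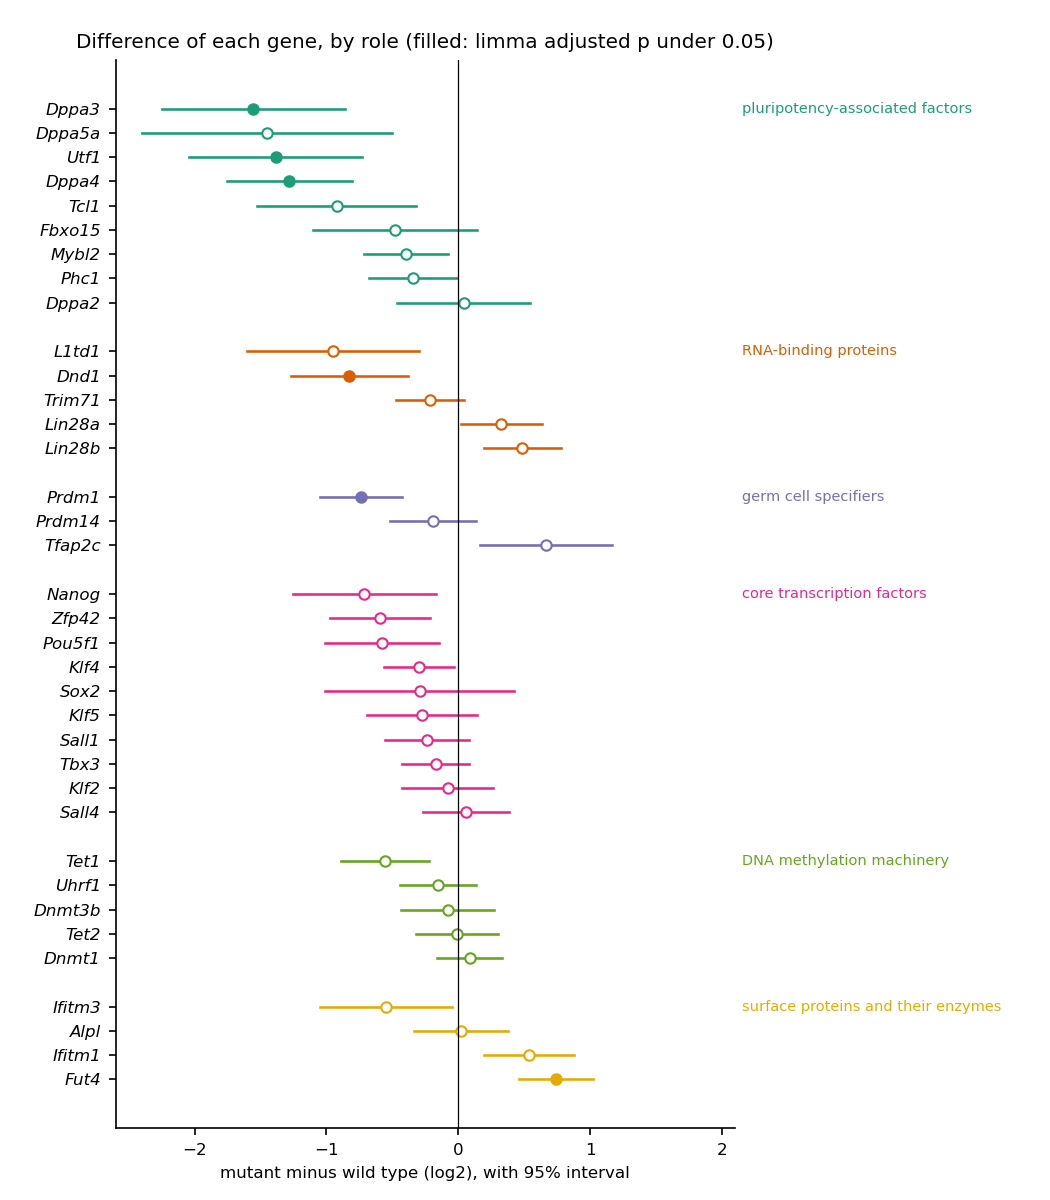
Difference of each of the 36 genes between the 3 mutant and 3 wild-type arrays (log2, mutant minus wild type), grouped by role; bars are 95% intervals of the limma fit and filled points have a limma adjusted p below 0.05. The pluripotency-associated factors reach furthest to the left, with Dppa3 at -1.55, and Fut4 is the filled point on the right, at 0.74.

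The pluripotency-associated factors held the largest differences. Dppa4, a DNA-binding protein of pluripotent and germ cells, measured 10.57, 10.72 and 10.27 log2 in wild type 1, 2 and 5 and 8.75, 9.41 and 9.55 in mutant 3, 4 and 6. The groups did not overlap, and mutant 3 was the lowest. It fell by 1.28 ± 0.21 log2 (SE), 2.43-fold, with a limma adjusted p of 0.0085. Its second probe set read 9.61, 9.58 and 8.998 in wild type and 6.75, 8.02 and 8.43 in the mutant, a difference of -1.66 ± 0.37 (limma adjusted p = 0.0333). Among the 6 genes called, Dppa4 was the one whose call held in each of the 17 alternative settings, with a limma adjusted p between 0.00171 and 0.0496. Apart from the mean of a gene's probe sets, these settings read the brighter probe set alone. Whether that probe set also binds sequences other than Dppa4 was not tested.

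Dppa3, also known as Stella, protects methylation in the early embryo and is a standard marker of germ cell founders. It measured 9.94, 10.00 and 10.08 log2 in wild type 1, 2 and 5 and 7.58, 8.88 and 8.90 in mutant 3, 4 and 6. On this brighter probe set the wild-type arrays stayed within a narrow band (SD 0.07). Its mutant arrays spread (SD 0.76) because mutant 3 lay well below the others. The fall of Dppa3 was 1.55 ± 0.31 log2 (SE), 2.93-fold, at a limma adjusted p of 0.0202. The second probe set of Dppa3 gave a difference of -1.12 ± 0.18 (limma adjusted p = 0.00772). It read 9.68, 9.83 and 9.81 in wild type and 8.42, 9.10 and 8.46 in mutant 3, 4 and 6. There mutant 3 and 6 lay close together, below mutant 4. Leaving out wild type 1, 2 or 5 ended the call of the brighter probe set (limma adjusted p = 0.0815, 0.063 and 0.0663). Retrocopies of Dppa3 exist in the mouse genome, and whether they bind these probes was not tested.

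Utf1, a chromatin-associated factor of embryonic stem cells and spermatogonia, measured 11.15, 11.17 and 10.95 log2 in wild type 1, 2 and 5. On mutant 3, 4 and 6 it measured 8.90, 10.22 and 9.99, again lowest on mutant 3 and with no overlap. The fall was 1.39 ± 0.29 log2 (SE), 2.61-fold (limma adjusted p = 0.0259). That call ended without wild type 1, 2 or 5 (limma adjusted p = 0.11, 0.082 and 0.0629), and the difference was -0.98 without mutant 3.

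The 6 other genes of this role did not pass. Dppa5a, an RNA-binding protein of pluripotent cells, measured 10.63, 10.53 and 11.63 log2 in wild type and 8.47, 10.11 and 9.85 in mutant 3, 4 and 6. Its difference of -1.45 was as large as those called, but both groups spread (limma adjusted p = 0.0875, 95% interval -2.40 to -0.50). Tcl1, a coactivator of the AKT kinase, measured 8.002, 7.71 and 8.10 in wild type and 6.31, 7.33 and 7.42 in the mutant (difference -0.92, limma adjusted p = 0.0876). Neither gene overlapped between groups, and both were lowest on mutant 3. Fbxo15, a target of POU5F1 and SOX2 that encodes an F-box protein, gave -0.48. Mybl2, a MYB family activator of cell cycle genes, gave -0.40. Phc1, a subunit of Polycomb repressive complex 1, gave -0.34 log2. Dppa2, which works as a partner of DPPA4, gave 0.04 with a 95% interval of -0.47 to 0.55. Dppa2 read 8.75, 8.71 and 8.80 in wild type and 8.26, 8.81 and 9.31 in mutant 3, 4 and 6, so its mutant arrays lay on either side of the wild-type ones. Its second probe set gave 0.02 ± 0.24 (SE). The direction of Dppa2 turned under germ cell scaling (-0.20).

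The upstream sequences of Utf1 and Prdm1, both called, and of Nanog and Pou5f1, regulators named by this list, show what stretch of DNA precedes their starts. Each is the 250 bases before the most upstream annotated start in RefSeq (GRCm38.p6), 5′ to 3′ on the gene's strand. Capitals mark matches, on either strand, to the octamer ATGCAAAT, the OCT-SOX composite (an OCT site joined to a SOX site), the SOX core AACAAT, the GC box GGGCGG, the CCAAT box and the retinoic acid receptor half-site AGGTCA.
Utf1, chr7:139943606-139943855, plus strand: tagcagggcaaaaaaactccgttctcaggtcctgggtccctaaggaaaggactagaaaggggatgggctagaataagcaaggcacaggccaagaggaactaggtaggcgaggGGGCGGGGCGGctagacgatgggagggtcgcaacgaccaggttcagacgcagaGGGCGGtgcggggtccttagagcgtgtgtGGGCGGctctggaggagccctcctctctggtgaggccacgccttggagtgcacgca
Prdm1, chr10:44458749-44458998, minus strand: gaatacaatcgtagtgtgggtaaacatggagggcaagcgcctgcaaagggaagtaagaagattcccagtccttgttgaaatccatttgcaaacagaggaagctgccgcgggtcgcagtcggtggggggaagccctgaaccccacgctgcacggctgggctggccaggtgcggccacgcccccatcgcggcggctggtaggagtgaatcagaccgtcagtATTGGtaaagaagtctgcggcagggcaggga
Nanog, chr6:122707239-122707488, plus strand: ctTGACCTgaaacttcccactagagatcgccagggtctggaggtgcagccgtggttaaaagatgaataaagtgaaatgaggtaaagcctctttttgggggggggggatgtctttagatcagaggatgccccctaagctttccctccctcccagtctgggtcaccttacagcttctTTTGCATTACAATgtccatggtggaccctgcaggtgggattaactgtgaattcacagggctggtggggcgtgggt
Pou5f1, chr17:35505782-35506031, plus strand: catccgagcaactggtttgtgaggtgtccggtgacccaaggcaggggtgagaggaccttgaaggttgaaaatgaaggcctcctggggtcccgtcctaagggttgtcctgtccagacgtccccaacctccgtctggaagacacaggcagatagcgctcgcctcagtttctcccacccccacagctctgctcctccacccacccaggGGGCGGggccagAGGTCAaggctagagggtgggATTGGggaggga

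Upstream of Utf1 there were 4 GC box matches, 2 of them overlapping, and none of the other motifs. The window of Prdm1 held a CCAAT box on the opposite strand, from -31 to -27 relative to the start. That of Nanog held an OCT-SOX composite from -75 to -63, the letters through which POU5F1 and SOX2 are known to bind this promoter, and a half-site. A GC box, a half-site and a CCAAT box lay within the last 45 bases before the start of Pou5f1. The set of RefSeq promoters used here held 25 of the 36 genes. The GC box occurred in 15 of these (60%) and in 33% of 27025 promoters of the same length. For the CCAAT box the shares were 32% and 34.5%, for the half-site 16% and 13.8%, and for the octamer, found in Zfp42, 4% and 1.62%. The OCT-SOX composite was found in 1 of the 25 and in 5 of all, and the SOX core in 0 of the 25 and in 9.62% of all. The window of Fut4, also a called gene, held none of these motifs and is not printed. These are matches of letters, and binding was not measured.

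Of the RNA-binding proteins Dnd1 fell, and 4 others did not pass. Dnd1, which shields germ cell transcripts from repression by miRNAs and is needed for germ cell survival, measured 9.40, 9.41 and 9.06 log2 in wild type 1, 2 and 5 and 8.07, 8.46 and 8.86 in mutant 3, 4 and 6. The nearest values, wild type 5 and mutant 6, were 0.20 log2 apart. The fall was 0.83 ± 0.20 log2 (SE; limma adjusted p = 0.043). Leaving out any 1 array other than mutant 6 ended that call, with a limma adjusted p from 0.0582 without wild type 5 to 0.167 without wild type 1, and so did quantile normalization (0.0611).

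Lin28a and Lin28b had positive differences and did not pass. LIN28A and LIN28B block the maturation of let-7 miRNAs. Lin28b measured 6.67, 6.76 and 6.41 log2 in wild type, at the background mark, and 7.12, 6.98 and 7.19 in mutant 3, 4 and 6 (difference 0.49 ± 0.13, SE; limma adjusted p = 0.0655). Lin28a measured 8.68, 8.81 and 8.67 in wild type and 8.85, 9.02 and 9.29 in the mutant (difference 0.33 ± 0.14, SE; limma adjusted p = 0.223). For both, all mutant arrays lay above all wild-type arrays. L1td1, an RNA-binding protein derived from a LINE-1 element, measured 8.65, 8.09 and 9.10 in wild type and 7.09, 8.02 and 7.87 in the mutant (difference -0.95, limma adjusted p = 0.102). Trim71, a ubiquitin ligase and let-7 target, gave -0.21 log2 (limma adjusted p = 0.354).

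Of the 3 germ cell specifiers Prdm1 fell, and Tfap2c and Prdm14 did not pass. Prdm1, the repressor also called Blimp1 that turns off the somatic programme in germ cell founders, measured 8.55, 8.59 and 8.76 log2 in wild type 1, 2 and 5 and 7.67, 7.91 and 8.11 in mutant 3, 4 and 6. With no overlap between groups, Prdm1 fell by 0.74 ± 0.14 log2 (SE), and its limma adjusted p was 0.0163. Leaving out any 1 array other than mutant 6 took its limma adjusted p to between 0.0517 and 0.0618. Tfap2c, an AP-2 factor that acts downstream of PRDM1, measured 6.93, 7.02 and 6.97 in wild type and 7.16, 7.56 and 8.19 in the mutant. All mutant arrays were above all wild-type arrays, but their spread was wide (difference 0.66 ± 0.22, SE; limma adjusted p = 0.134). Without mutant 3 its difference was 0.90 and passed (limma adjusted p = 0.0472), and without mutant 6 it was 0.39 (limma adjusted p = 0.171). Prdm14 measured 7.77, 7.36 and 7.75 in wild type and 7.31, 7.58 and 7.41 in the mutant, which overlapped (difference -0.19, 95% interval -0.52 to 0.14; limma adjusted p = 0.547).

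None of the 10 core transcription factors passed, 4 of them having an unadjusted limma p under 0.05. Pou5f1, which encodes OCT4, measured 10.91, 10.93 and 10.64 log2 in wild type 1, 2 and 5 and 9.80, 10.40 and 10.54 in mutant 3, 4 and 6. Its groups did not overlap, with wild type 5 and mutant 6 only 0.10 log2 apart (difference -0.58 ± 0.19, SE; limma adjusted p = 0.129). Nanog measured 9.50, 9.24 and 9.55 in wild type and 8.13, 8.81 and 9.21 in the mutant (difference -0.71 ± 0.24, SE; limma adjusted p = 0.136). In Nanog too the mutant arrays lay in the order 3, 4, 6, with mutant 6 just below wild type 2. Without mutant 6 Nanog passed, at -0.96 log2 (limma adjusted p = 0.0287), and without mutant 3 its difference was -0.42 (limma adjusted p = 0.289). That of Pou5f1 was -0.36 without mutant 3 (limma adjusted p = 0.291).

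Sox2 varied more between arrays of a group than between groups. It measured 8.69, 8.95 and 9.33 log2 in wild type 1, 2 and 5 and 8.08, 8.53 and 9.49 in mutant 3, 4 and 6, so mutant 6 was the highest of all (difference -0.29, 95% interval -1.01 to 0.42). Sall4, a zinc finger factor of germ cells and stem cells, measured 9.29, 9.22 and 9.39 in wild type and 9.25, 9.18 and 9.65 in the mutant. The interval of its difference, -0.26 to 0.38 log2 around 0.06, leaves out changes as large as those of the called genes; the sign turned to -0.18 under germ cell scaling. Zfp42, the stem cell marker also known as Rex1, gave -0.59 log2 with every array under the background mark (limma adjusted p = 0.0833). Klf4, Klf5 and Klf2, Krüppel-like factors that support naive pluripotency, gave -0.30, -0.28 and -0.08. Sall1, a zinc finger factor of the kidney mesenchyme, gave -0.24, and Tbx3, a T-box factor of pluripotent and somatic cells, gave -0.17.

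**Figure D2:**
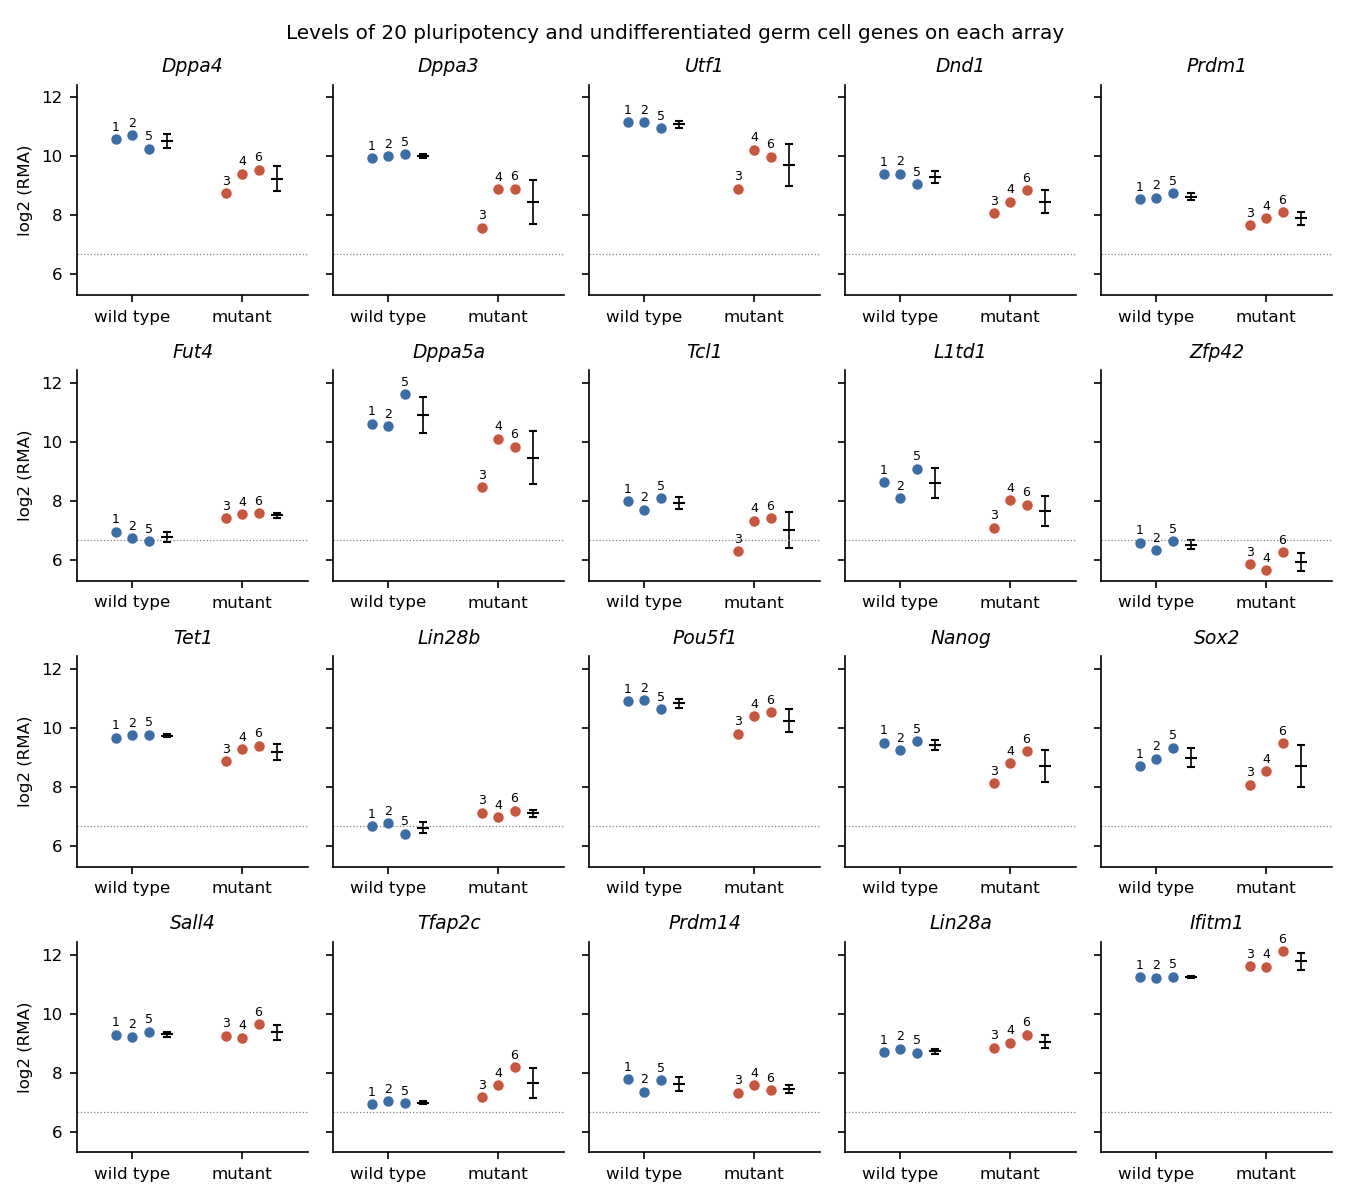
Levels (log2 after RMA) of 20 of the genes on the 3 wild-type arrays (blue, numbers 1, 2 and 5) and the 3 mutant arrays (red, numbers 3, 4 and 6); bars are mean ± SD over 3 arrays, the dotted line is the background mark of 6.67 log2, and levels of different genes are not comparable. Mutant 3 is the lowest red point in Dppa4, Dppa3, Utf1, Dnd1 and Prdm1, while Sox2 and Sall4 overlap between groups.

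The DNA methylation machinery did not pass in any of its 5 genes, with 1, Tet1, at an unadjusted limma p under 0.05. Tet1, a dioxygenase that oxidises 5-methylcytosine and supports the reactivation of meiotic genes in germ cells, measured 9.66, 9.76 and 9.77 log2 in wild type 1, 2 and 5 and 8.86, 9.28 and 9.39 in mutant 3, 4 and 6. Its wild-type arrays were close together and above all mutant arrays (difference -0.55 ± 0.15, SE; limma adjusted p = 0.067). The 2 other probe sets of Tet1 gave -0.53 and -0.58 (limma adjusted p = 0.178 and 0.21). In 6 of the 17 alternative settings Tet1 passed, the limma adjusted p running from 0.0104 to 0.232. Tet2, the related enzyme that is also active in blood and somatic cells, gave -0.0087, with a 95% interval of -0.32 to 0.30. Dnmt1, the maintenance methyltransferase, gave 0.09 (-0.16 to 0.33) and turned to -0.16 under germ cell scaling. UHRF1 recruits DNMT1 to replicated DNA, and its gene gave -0.15 (-0.44 to 0.14). Dnmt3b, a de novo methyltransferase, gave -0.08 (-0.43 to 0.27).

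Surface proteins and the enzymes of surface markers contained the single riser. Fut4 encodes the fucosyltransferase that makes the SSEA-1 carbohydrate, a surface marker of stem cells and early germ cells. It measured 6.96, 6.74 and 6.64 log2 in wild type 1, 2 and 5 and 7.43, 7.56 and 7.59 in mutant 3, 4 and 6. The mutant arrays were tight and all above the wild-type ones, with wild type 5 below the background mark. Fut4 rose by 0.74 ± 0.12 log2 (SE), 1.67-fold (limma adjusted p = 0.00944). The call ended among numbers 1 to 4 alone (0.0527) and without wild type 5 and mutant 4 together (0.106).

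The 2 interferon-induced transmembrane genes differed in sign. Ifitm1 measured 11.24, 11.22 and 11.26 log2 in wild type and 11.62, 11.60 and 12.11 in mutant 3, 4 and 6 (difference 0.54 ± 0.15, SE; limma adjusted p = 0.0796), and its second probe set gave 0.51 (limma adjusted p = 0.25). Ifitm3, also known as Fragilis and an early mark of germ cell competence, measured 9.99, 9.70 and 10.18 in wild type and 8.95, 9.41 and 9.87 in the mutant, with overlap (difference -0.55, limma adjusted p = 0.215). Alpl, the tissue-nonspecific alkaline phosphatase by which primordial germ cells are stained, gave 0.02 log2 with a 95% interval of -0.34 to 0.38, and its sign turned with a common median (-0.002) and with germ cell scaling (-0.22).

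Mutant arrays did not contribute equally. Of the 36 genes, 26 (72.2%) had their lowest mutant value on mutant 3, as had 33.5% of all genes, and these included each of the 5 that fell. Median deviations of the 36 from the wild-type mean were -0.42 log2 on mutant 3, -0.23 on mutant 4 and -0.14 on mutant 6. Over the 9 pluripotency-associated factors they were -1.63, -0.61 and -0.61. The SD was larger among mutant than among wild-type arrays in 25 of the 36 genes (69.4%), against 54.3% of all genes. Without mutant 3, 3 of the 36 fell (8.33%, against 2.11% of all genes), and without mutant 6, 10 fell (27.8%, against 3.74%). Leaving out mutant 4 gave 3 fallers (8.33%, against 2.9%). With wild type 1, 2 or 5 left out instead, Dppa4 alone fell (2.78%, against 1.66%, 2.3% and 2.48% of all genes). The share of fallers among the 36 was then near that of all genes.

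Meiotic genes were highest on the mutant array where the undifferentiated genes were lowest. In a list of 16 meiotic genes 9 rose, among them Meioc and Stra8. The wild-type arrays of both lay below the background mark, so their sizes are not given. On mutant 3, 4 and 6 Meioc measured 10.33, 9.68 and 8.39 log2 and Stra8 9.06, 8.42 and 7.92. Over the 16 genes median deviations were 2.64, 1.995 and 0.86 log2 on mutant 3, 4 and 6, so mutant 3 lay highest and mutant 6 lowest. Only 4 of the 16 lay above the background mark on every array. The list's mean levels were 6.63, 6.51 and 6.00 log2 in wild type 1, 2 and 5, so the sizes of these medians may be understated. The Sertoli medians ran otherwise, -2.30, -1.25 and -2.22. With 3 mutant arrays these orders are a description. Cell cycle genes were lowest on mutant 3 too, with medians of -0.42, -0.17 and -0.19 over 11 genes, of which Aurkb fell by 0.81 log2. The mean level of the cell cycle list was 10.65 to 10.90 log2 in wild type and 10.36 to 10.63 in the mutant. Its part in the result was not tested.

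**Figure D3:**
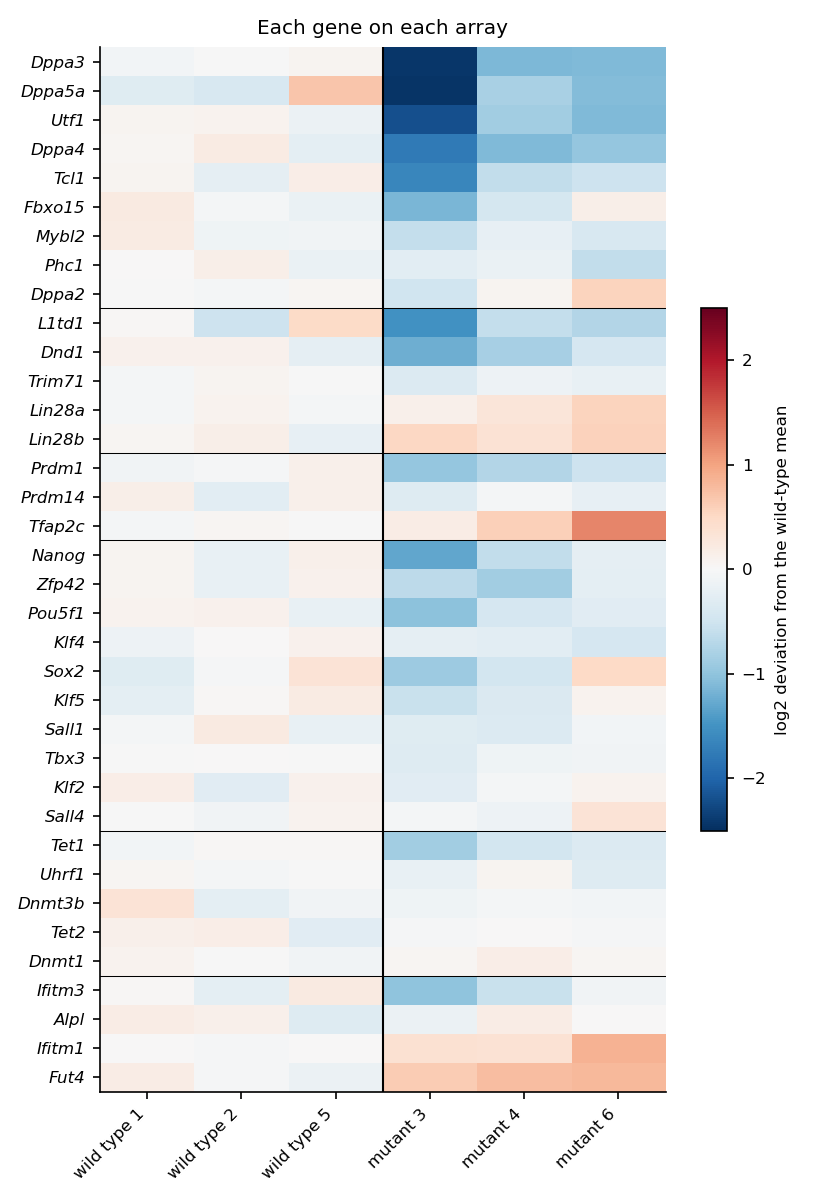
Deviation of each of the 36 genes on each array from its own wild-type mean (log2), with blue for lower and red for higher values; rows are grouped by role in the order of the plot of differences. Mutant 3 is the darkest blue column, with Dppa3 (brighter probe set) at -2.43, and Tfap2c on mutant 6 is the deepest red, at 1.21.

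Differences between genotypes were also taken within numbers 1 to 4 and for mutant 6 against wild type 5. The latter is 1 array per group, and wild type 5 is the array high in fetal liver genes. Of 30 genes with a negative difference within numbers 1 to 4, 24 (80%) had a smaller negative or a positive difference for 6 against 5. Picking genes by their sign in one comparison favours a smaller size in the other, so nothing is concluded from this count. Of the 36 genes, 14 (38.9%) were higher on mutant 6 than on wild type 5, and 6 (16.7%) were higher in the mutant within numbers 1 to 4. None of these counts was made over all genes, so they are not read as particular to the 36. For Pou5f1 the differences were -0.82 within numbers 1 to 4 and -0.10 for 6 against 5, and for Dnd1 -1.14 and -0.20. Sox2 gave -0.52 and 0.16 log2. Dppa3 gave -1.74 and -1.18, and Prdm1 -0.78 and -0.65. The size was larger for 6 against 5 in Dppa5a (-1.29 and -1.78) and L1td1 (-0.81 and -1.23). It was also larger in Tfap2c, at 0.39 and 1.22, Ifitm1 at 0.38 and 0.86 and Lin28b at 0.34 and 0.79. Fut4, at 0.64 and 0.95, Lin28a, at 0.19 and 0.61, and Klf4, at -0.19 and -0.52, went the same way, as did some others. The labels name no batch. With numbers 5 and 6 entered as a batch term, 10 of the 36 fell and 3 rose, against 6.22% and 4.11% of all genes. The 6 genes called without that term passed, and so did Tet1 (limma adjusted p = 0.0371), Zfp42 (0.0244), Dppa5a (0.0341), Tcl1 (0.0452), L1td1 (0.044), Lin28b (0.046) and Ifitm1 (0.0308).

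Genes of the general germ cell list were mostly higher in the mutant, and none passed as lower in the limma fit. Ddx4, an RNA helicase of all germ cells at this stage, measured 10.91, 10.95 and 10.87 log2 in wild type and 11.06, 11.10 and 11.11 in the mutant (difference 0.18, 95% interval -0.06 to 0.41; limma adjusted p = 0.409). Dazl, an RNA-binding protein that licenses germ cells for sexual differentiation, measured 11.49, 11.36 and 11.20 in wild type and 11.68, 11.62 and 11.67 in the mutant (difference 0.31, 95% interval 0.05 to 0.57; limma adjusted p = 0.184). Of 10 general germ cell genes, Rbm46 rose by 0.67 and Rnf17 by 0.54 log2, and 8 did not pass. Differences were positive in 9 of the 10, with a median of 0.50 log2. In 7 of the 10 every mutant array lay above every wild-type array, as in 12.1% of all genes. An unadjusted limma p under 0.05 was found in 8 of the 10, Nanos3 among them, and in 21.7% of all genes. The 1 negative difference was that of Nanos3, an RNA-binding protein that keeps migrating germ cells alive. Nanos3 measured 7.73, 7.65 and 7.19 log2 in wild type 1, 2 and 5 and 6.82, 7.12 and 6.97 in mutant 3, 4 and 6, with no overlap (difference -0.55, limma adjusted p = 0.088).

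Setting each array to the mean of its Ddx4 and Dazl values moved the median of all probe sets from 0.02 to -0.22 log2, and every difference with it. On that scale 19 of the 36 genes fell (52.8%, against 18.8% of all genes), and 1, Fut4, rose (2.78%, against 1.42%). Nanog (limma adjusted p = 0.0262), Pou5f1 (0.0167) and Tet1 (0.0104) passed there. Of all genes called on that scale 93% were lower, against 61.9% on the deposited scale.

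**Figure D4:**
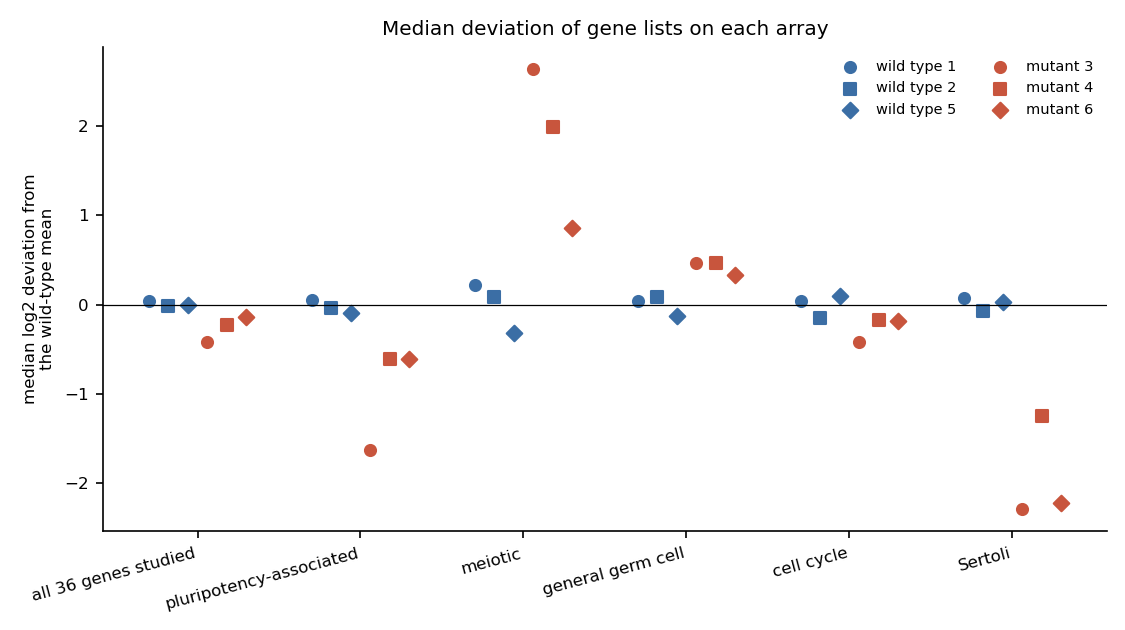
Median log2 deviation from the wild-type mean of the 36 genes, of their 9 pluripotency-associated factors and of 4 comparison lists on each of the 6 arrays (blue wild type, red mutant; marker shape tells arrays of a group apart). On mutant 3 the median of the 36 genes is -0.42 and the meiotic median 2.64, whereas on mutant 6 they are -0.14 and 0.86. Only 4 of the 16 meiotic genes lay above the background mark on every array.

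Further genes of the pluripotency network, 24 measured of 25 listed, were lower in 6 cases and higher in 2, with 16 not passing (median -0.16 log2). The fallers were Otx2, a homeobox factor that holds back germ cell fate (all 3 mutant arrays below the background mark), Etv5, an ETS factor downstream of FGF (-1.01), Cdh1, or E-cadherin (-0.98), Tdgf1, the NODAL co-receptor (-0.90), Lifr, the LIF receptor (-0.66), and Esrrb, an orphan nuclear receptor of naive stem cells (-0.59). Nr0b1, which is also a gene of gonadal somatic cells, rose by 1.04 log2, and Il6st, the signalling subunit shared by LIF family receptors, by 0.62. Of the male germ cell list 4 of 11 fell, among them Lefty1 and Lefty2, inhibitors of NODAL signalling. All 3 mutant arrays of Lefty1 and 2 of 3 of Lefty2 lay below the background mark, so their sizes are not given.

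Other cell types were followed for their part in the pools. No endothelial gene of 8 passed in the limma fit (5 had an unadjusted p under 0.05). Their differences were negative in 7 of 8, with a median of -0.28 log2. In 5 of the 8 every mutant array lay below every wild-type array, as in 16.6% of all genes. Endothelial genes had mean levels of 8.68 to 8.90 log2 in wild type and 8.48 to 8.68 in the mutant. Of 6 erythroid genes Alas2 alone passed, falling by 0.51 log2, all 6 differences were negative, and their median was -0.35 log2. The endothelial and erythroid medians were thus of the same sign as the -0.28 of the 36 genes, and their part in the result was not tested. Among 7 macrophage genes none passed (1 with an unadjusted p under 0.05). Of 7 mesonephric genes Emx2, also a gene of the gonadal epithelium, rose by 1.61, Gata3 rose from wild-type arrays below the background mark, and Lhx1 fell by 0.96 log2. The fetal liver list, high on wild type 5, had 0 of 9 genes called in the limma fit and 1 with an unadjusted p under 0.05. Without wild type 5, 1 of the 36 genes, Dppa4, fell (2.48% of all genes did), and 1, Fut4, rose (1.42%). There Dppa3 was at -1.52, Utf1 at -1.46 and Dnd1 at -0.94, against -1.55, -1.39 and -0.83 with that array, and none of the 3 passed (limma adjusted p = 0.0663, 0.0629 and 0.0582). Dppa5a moved from -1.45 to -1.10 and L1td1 from -0.95 to -0.71.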

How the data were processed

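RNA of 6 gonad pools was measured on 6 arrays. Per the submitters' processing notes the deposited log2 values are RMA output; its settings were not given in the sources used here. They ran from 2.45 to 14.49. From the 34760 rows, 6573 with identifiers below the lowest annotated one (18.9%) were left out as likely controls. Of the 28187 tested, 21640 named 1 gene, 1321 several and 5226 none. Probe annotation came from GEO's platform table. The comparison used lmFit and eBayes of limma 3.58.1 under R 4.3.3 (2-sided, 4 residual degrees of freedom), with Benjamini-Hochberg adjustment over all tested probe sets and a threshold of 0.05. The fit was tested on simulated data. Precision is limited by having 3 arrays per group.

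The members and lists were chosen with earlier results of these data known. All 36 members are named; array values are given for called members, 7 defining regulators (Pou5f1, Nanog, Sox2, Prdm14, Tfap2c, Sall4 and Lin28a) and the 3 next by adjusted p (Lin28b, Tet1 and Ifitm1), those of Dppa5a, Tcl1, L1td1, Dppa2 and Ifitm3 being added after their values were seen. Of other lists the 2 called genes with the largest differences are named, except for the Sertoli, Leydig and pregranulosa lists, which carry no such names. Further names were chosen after their values were seen. Alternatives were 3 scalings, 2 filters, 2 variance models, a gene summary, numbers 5 and 6 as a batch or left out, and arrays left out. Promoters are RefSeq's. Figures were drawn with matplotlib 3.10.9.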

Additional observations from a re-analysis of the deposited data

How the results depend on the processing

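The settings below are those listed for the 36 genes and for all genes; Dppa4 and Sox9 kept their calls in all 17. In the deposited scale 5 genes of the list fell and 1 rose, with 857 and 527 of all genes. Leaving out 1 array gave 1 to 10 fallers and 1 to 2 risers of the list, and 330 to 746 and 262 to 546 of all genes. The lowest of these, 1 faller (2.78%), came without wild type 1, 2 or 5, where 1.66%, 2.3% and 2.48% of all genes fell. Germ cell scaling gave 19 fallers of the list, with 3754 lower and 283 higher of all genes. Keeping all rows of the table gave 2 fallers (465 and 307 of all genes), the mean of a gene's probe sets 8 fallers and 2 risers (5.88% and 3.68% of all genes), and numbers 5 and 6 as batch 10 and 3 (820 of all genes higher). Without wild type 5 and mutant 4 there were 2 fallers and 0 risers (405 and 199 of all genes), and numbers 1 to 4 alone gave 0 risers (1.92% of all genes) and 513 lower genes. Quantile normalization and eBayes with trend and robust each gave 2 risers (3% and 3.01% of all genes), and leaving out dim probe sets 3 (4.87%).

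Signs turned only for genes that were not called. Germ cell scaling lowers every difference by the same 0.24 log2, so the turns under it follow from that shift. It gave -0.16 for Dnmt1, -0.18 for Sall4, -0.20 for Dppa2, -0.22 for Alpl and -0.066 for Ddx4. Ddx4 and Dazl, which set that scale, come out equal and opposite by construction, Dazl at 0.066. Numbers 1 to 4 alone gave -0.038 for Sall4, -0.20 for Dppa2 and -0.13 for Alpl. Alpl was -0.0024 with a common median and -0.22 without wild type 5 and mutant 4, and Tet2 was 0.023 with quantile normalization. With 1 array left out, the ranges were -0.69 to 0.019 for Sox2, -0.22 to 0.019 for Klf2, -0.21 to 0.093 for Dnmt3b, -0.084 to 0.15 for Sall4, -0.22 to 0.31 for Dppa2, -0.14 to 0.11 for Alpl and -0.15 to 0.071 for Tet2. Dppa3 and Utf1 also lost their calls with all rows kept (limma adjusted p = 0.0586 and 0.0698) and with trend and robust (0.0573 and 0.0705), and Dnd1 with all rows kept (0.0982). The cause was not tested. No paired analysis was possible because the groups share no replicate number. Genes near the background mark have understated differences.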
